A study of Homo sapiens with 96 samples.

Results

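The 7 genes ID1, ID2, ID3, ID4, ATOH8, SMAD6 and SMAD7 are known targets of bone morphogenetic protein (BMP) signalling, and their transcript levels were followed through a screen of peony root extracts and ingredients. They were found by symbol among the 60675 rows of the count matrix, and all 7 passed the filter on low counts in both batches. ID4 and ATOH8 were selected because their levels were lower with the water extract. Their values are therefore given without a test wherever water extract libraries enter a comparison, and counts of members there cover the other 5.

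BMP ligands bind receptor kinases at the cell surface, which phosphorylate SMAD1, SMAD5 and SMAD9. These factors enter the nucleus with SMAD4 and switch on a short list of genes, of which the ID genes are the best known. ID proteins carry a helix-loop-helix domain without the basic stretch that contacts DNA, so they hold basic helix-loop-helix partners such as TCF3 and TCF12 away from their sites. SMAD6 and SMAD7 are inhibitory SMADs that act back on the receptors, SMAD6 mainly in the BMP branch and SMAD7 in the BMP and TGF-beta branches. ATOH8 is itself a basic helix-loop-helix factor, known as a BMP target in mouse liver.

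The cells were A549, an established human lung adenocarcinoma line, and every group had 3 RNA-seq libraries. In batch 1 the cells received an ethanol extract or a water extract of Paeoniae Radix, which is dried peony root, at 20, 100 or 500 µg/mL, or vehicle, which gave 7 groups and 21 libraries. In batch 2 they received paeoniflorin, albiflorin, hederagenin, oleanolic acid, gallic acid, benzoic acid, catechin or paeonol at 0.4, 2 or 10 µM, or a vehicle of its own, which gave 25 groups and 75 libraries. How long the cells were exposed and what the vehicle was is not stated. Nor is it stated whether the 3 libraries of a group came from separate cultures, so the p-values reflect the spread among these libraries alone, and that spread may be technical.

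Totals ranged from 17.9 to 28.1 M counts per library in batch 1 and from 15.7 to 35.6 M in batch 2. The common biological coefficient of variation was 0.0444 in batch 1 and 0.212 in batch 2, and small changes were harder to detect in the second batch. Several batch 2 libraries stood apart. The share of counts from the 13 mitochondrial protein genes ran from 0.486% to 15.5% in its ingredient libraries and from 11.6% to 12.1% in its vehicle libraries, and 18 ingredient libraries were under 5%. In 4 libraries, namely gallic acid 2 µM and 0.4 µM replicate 1 and catechin 10 µM and 2 µM replicate 2, the collagen gene COL1A2 reached 485 to 606 CPM, against at most 0.843 CPM in the other 71. Of these 4, all but gallic acid 0.4 µM replicate 1 (5.17%) are also among the 18.

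The 5′ flanks of ID1, ID4 and SMAD6 are shown because the ID genes fell with ethanol extract at the highest dose while SMAD6 rose. With water extract at the highest dose SMAD6 fell slightly, along with ID1, ID2 and ID3. Each flank is the 250 bases before the RefSeq start on the plus strand of GRCh38.p14. ID1 lies at chr20:31605039-31605288, ID4 at chr6:19837120-19837369 and SMAD6 at chr15:66701986-66702235. Capitals mark matches to 3 motifs that read the same on both strands and do not overlap here: GGCGCC, a core bound by SMAD1 and SMAD5, GTCTAGAC, the palindromic SMAD box, and CANNTG, the E-box of helix-loop-helix factors.
ID1: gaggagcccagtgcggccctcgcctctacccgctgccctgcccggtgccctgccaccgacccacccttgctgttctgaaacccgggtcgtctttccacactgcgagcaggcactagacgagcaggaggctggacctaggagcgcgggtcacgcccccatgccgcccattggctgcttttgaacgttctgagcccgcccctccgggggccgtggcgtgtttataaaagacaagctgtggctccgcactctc
ID4: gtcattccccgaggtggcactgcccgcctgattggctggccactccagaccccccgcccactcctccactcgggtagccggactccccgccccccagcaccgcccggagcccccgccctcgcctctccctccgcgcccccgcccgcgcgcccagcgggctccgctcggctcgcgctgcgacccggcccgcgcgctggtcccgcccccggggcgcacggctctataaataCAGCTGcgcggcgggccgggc
SMAD6: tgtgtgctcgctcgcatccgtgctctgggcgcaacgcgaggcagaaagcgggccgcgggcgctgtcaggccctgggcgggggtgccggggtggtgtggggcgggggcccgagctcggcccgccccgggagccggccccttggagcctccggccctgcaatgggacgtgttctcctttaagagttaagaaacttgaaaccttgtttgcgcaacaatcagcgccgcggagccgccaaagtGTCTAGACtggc

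The ID1 window held none of the 3 motifs. The ID4 window held CAGCTG with its first base 21 bases before the start, and 61.8% of 35116 RefSeq windows of this length held a CANNTG. The SMAD6 window held GTCTAGAC with its first base 12 bases before the start, a motif found in 0.182% of windows. GGCGCC was in 16.4% of all windows and in no window of the 7 genes. The GC content was 66% for ID1, 78.8% for ID4 and 68% for SMAD6, against a median of 58% over all windows. A match or its absence describes these letters in these windows and is no measure of binding.

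By GENCODE v29 on GRCh38, ID1 lies at chr20:31605283-31606515, ID2 at chr2:8678845-8684453, ID4 at chr6:19837386-19840684, ATOH8 at chr2:85751344-85788066 and SMAD6 at chr15:66702228-66782848, all on the plus strand, and ID3 at chr1:23557918-23559794 and SMAD7 at chr18:48919853-48952052 on the minus strand. ID2 overlaps its antisense gene ID2-AS1, ID4 overlaps the antisense gene AL022068.1, ATOH8 overlaps MIR6071 and SMAD6 overlaps AC013564.1. The library kit kept strand, but whether the counting used it is not stated, so reads of ID2 and ID4 and of their antisense partners cannot be told apart with certainty.

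Per kilobase of exon, ID1 and ID3 were the most abundant members and ATOH8 the least. In batch 1 vehicle cells the level was 143 ± 6.25 CPM per kb for ID1, 117 ± 0.371 for ID3 and 54 ± 1.18 for ID2 (SD, n = 3). The inhibitory SMADs were at 10.4 ± 0.363 CPM per kb for SMAD6 and 4.74 ± 0.196 for SMAD7. ID4 stood at 6.09 ± 0.13 and ATOH8 at 2.56 ± 0.11 CPM per kb. All further levels are CPM (counts scaled to the same effective library size), and are compared only between samples of one gene.

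With ethanol extract at 500 µg/mL all 4 ID genes fell against vehicle, SMAD6 and SMAD7 rose, and ATOH8 did not pass. With water extract at 500 µg/mL, ID1, ID2 and ID3 fell, SMAD6 fell slightly, SMAD7 did not pass, and both selected genes were lower. SMAD6 was thus moved in opposite directions. In RNA of whole cultures, fewer cells of one kind and less RNA per cell cannot be told apart.

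ID2, which holds partner factors off DNA in many progenitor cells, had 52.1, 58.1 and 57.1 CPM with ethanol extract at 500 µg/mL and 54.2, 55.7 and 57.1 CPM with water extract, against 118, 118 and 122 CPM with vehicle. Libraries of both extracts overlapped each other and lay far below those of vehicle. The log2 change was -1.09 ± 0.05 with ethanol extract (SE, adjusted p = 6.75e-15, by edgeR's quasi-likelihood test, Benjamini-Hochberg adjusted, as for every adjusted p here) and -1.10 ± 0.05 with water extract (adjusted p = 1.15e-12).

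ID3, which is often expressed together with ID1, had 118, 118 and 116.5 CPM with ethanol extract and 113, 108 and 112 CPM with water extract, against 210, 210 and 211 CPM with vehicle. Treated and vehicle libraries were far apart, and within each group the 3 libraries were close. The log2 change was -0.84 ± 0.04 with ethanol extract (adjusted p = 9.62e-15) and -0.92 ± 0.04 with water extract (adjusted p = 3.85e-13).

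ID1, the member most used as a readout of BMP signalling, had 110, 111 and 104 CPM with ethanol extract and 133, 127 and 126 CPM with water extract, against 177, 184 and 169 CPM with vehicle. The 3 groups did not overlap, and the ethanol libraries were the lowest. Its log2 change was -0.70 ± 0.05 with ethanol extract (adjusted p = 3.15e-11) and -0.455 ± 0.052 with water extract (adjusted p = 3.15e-06), the smallest change of the 4 ID genes under either extract.

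ID4, the least abundant ID gene, had 5.17, 4.35 and 4.88 CPM with ethanol extract and 4.03, 4.67 and 4.94 CPM with water extract, against 14, 14.1 and 14.6 CPM with vehicle. Ethanol and water libraries overlapped, and none came near vehicle. The log2 change with ethanol extract was -1.57 ± 0.08 (adjusted p = 2.48e-14), with the vehicle libraries shared with the comparison on which the gene was selected. With water extract it was -1.65 ± 0.08, as a description. The mean with ethanol extract was 33.7% and with water extract 31.9% of the vehicle mean. The shares were 46.9% and 46.7% for ID2, 56% and 52.9% for ID3, and 61.5% and 72.9% for ID1. ID4 was selected for its lower level with water extract, so its place in this order is a description.

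ATOH8, one of the selected genes, was lower with water than with ethanol extract, and the size of that gap is a description only. It had 16.6, 14.3 and 16.6 CPM with ethanol extract and 6.24, 4.8 and 6.57 CPM with water extract, against 16.2, 15.7 and 14.8 CPM with vehicle. The ethanol libraries overlapped those of vehicle, and all water libraries lay far below both. Its log2 change was 0.02 ± 0.09 with ethanol extract, with a 95% interval from -0.16 to 0.21 (adjusted p = 0.831), and -1.41 ± 0.105 with water extract, as a description.

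SMAD6, the inhibitor of the BMP branch, had 118, 111 and 118 CPM with ethanol extract and 81.2, 78.5 and 80.3 CPM with water extract, against 85.3, 90.8 and 90.5 CPM with vehicle. The vehicle libraries lay between the 2 extracts without overlap. The log2 change was 0.38 ± 0.04 with ethanol extract (adjusted p = 1.07e-08) and -0.15 ± 0.04 with water extract (adjusted p = 0.0105).

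SMAD7, which acts on both branches, had 29, 26.4 and 27.4 CPM with ethanol extract and 21.4, 23.4 and 22.9 CPM with water extract, against 24.5, 22.7 and 24.4 CPM with vehicle. The ethanol libraries were the highest and did not overlap vehicle, and the water libraries overlapped it. The log2 change was 0.21 ± 0.05 with ethanol extract (adjusted p = 0.00147) and -0.08 ± 0.055 with water extract (adjusted p = 0.319).

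Of all genes tested, 34.4% passed as lower and 34.7% as higher with ethanol extract at 500 µg/mL, against 4 lower and 2 higher of 7 members, ID4 among them. A call in this comparison was therefore the usual outcome for a gene. With water extract at 500 µg/mL, 11.4% of all genes passed as lower, against 4 of the 5 members tested. The median log2 change over the members was -0.70 with ethanol extract, where it was 0.00 over all genes, and -0.455 over the 5 members with water extract, where it was 0.01 over all genes.

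**Figure D1:**
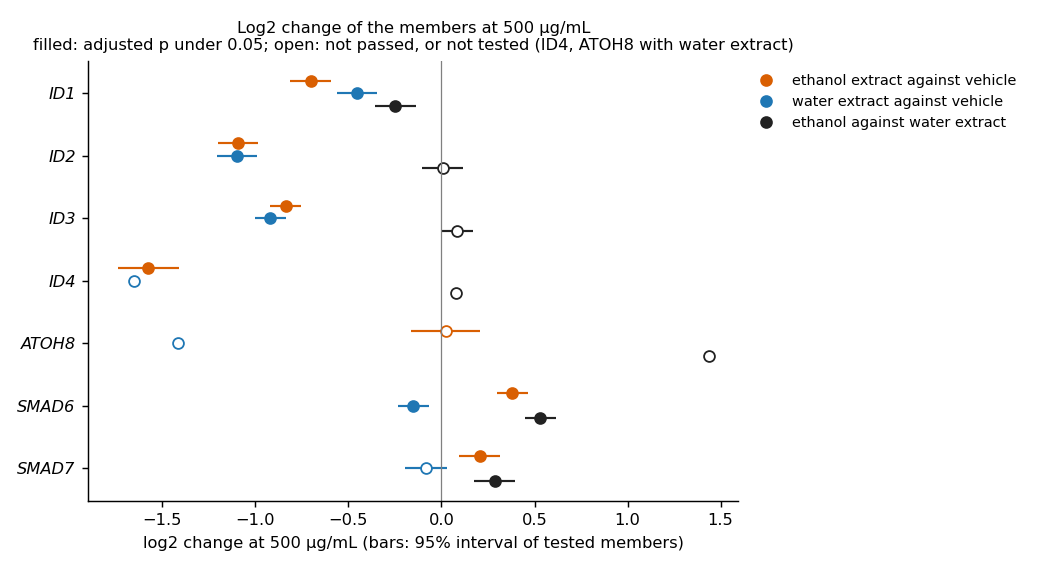
Log2 change of each member at 500 µg/mL, with ethanol extract against vehicle, water extract against vehicle, and ethanol against water extract. Bars are 95% intervals of tested members, filled points passed at an adjusted p under 0.05, and open points either did not pass or were not tested. The 4 ID genes lie left of 0 for both extracts, whereas ATOH8 lies at 0.02 with ethanol extract and at -1.41 with water extract.

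Other features moved with the extracts. The mitochondrial share was 12.1% to 13.4% with ethanol extract and 11.7% to 13.9% with water extract at 500 µg/mL, against 13.9% to 18.5% with vehicle, and its part in these results was not tested. All 7 markers of A549 and epithelial cells fell with ethanol extract at 500 µg/mL, where 34.4% of all genes passed as lower. Their summed levels were 5250 to 5290 CPM, against 7160 to 7600 CPM with water extract and 7210 to 7770 CPM with vehicle. With water extract 3 of the 7 rose and 1 fell, or 57.1% of the list, against 21.1% of all genes in either direction. None of the 7 was at 0 in any library, and their part in the fall of the ID genes was not tested. Over the 21 libraries the 6 fibroblast markers summed to 46.7 to 68.8 CPM, the 5 endothelial markers to at most 0.647 CPM and the 5 blood cell markers to at most 0.427 CPM.

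The difference between the extracts was tested directly at matched dose. At 500 µg/mL, ID1 was lower with ethanol than with water extract by a log2 difference of -0.25 ± 0.05 (adjusted p = 0.000264), in a comparison where 33.3% of all genes passed as lower. SMAD6 was higher by 0.53 ± 0.04 (adjusted p = 4.16e-11) and SMAD7 by 0.29 ± 0.05 (adjusted p = 5.22e-05), where 32.7% passed as higher.

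ID2 and ID3 did not pass between the extracts at 500 µg/mL. The 95% interval of the log2 difference ran from -0.105 to 0.117 for ID2 and from -0.002 to 0.168 for ID3. The differences of the 2 selected genes, given as a description, were 0.08 for ID4 and 1.44 for ATOH8. At 100 µg/mL none of the 5 tested members passed between the extracts, where 1.77% of all genes passed in either direction, and 2 of the 5 had an unadjusted p under 0.05. At 20 µg/mL none passed by edgeR or by DESeq2, where 0% of all genes passed, and 1 of the 5 had an unadjusted p under 0.05.

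By dose, the means of ID2, ID3 and ID4 were lower at each higher dose of either extract. ID4 was selected on the water extract, so its water levels by dose are a description. The mean of ID1 was clearly below vehicle at 500 µg/mL only, and ATOH8 had its lowest ethanol level at the middle dose. For ID2 the means with ethanol extract at 20, 100 and 500 µg/mL were 109 ± 7.27, 90.2 ± 3.87 and 55.8 ± 3.22 CPM, and with water extract 113 ± 4.58, 94.9 ± 3.99 and 55.7 ± 1.42 CPM (SD, n = 3). Within each dose the ID2 libraries of the extracts overlapped, whereas the 3 doses and vehicle did not overlap one another. How often other genes parted by dose in this way was not counted.

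At 100 µg/mL the ethanol extract lowered 4 of 7 members, where 9.23% of all genes passed as lower. ID2 had 87.7, 88.2 and 94.6 CPM (log2 change -0.40 ± 0.05, adjusted p = 9.61e-06) and ID3 153, 170 and 162 CPM (-0.38 ± 0.04, adjusted p = 1.16e-06). ID4 had 11, 11 and 10.1 CPM (-0.42 ± 0.07, adjusted p = 0.000257) and ATOH8 9.89, 12.4 and 12.3 CPM (-0.43 ± 0.09, adjusted p = 0.00239). Both selected genes are compared here with the vehicle libraries on which they were chosen, so their calls are not independent of that choice. For all 4 genes the ethanol libraries lay below those of vehicle, while ID1, SMAD6 and SMAD7 did not pass, at log2 changes of 0.00, -0.01 and -0.03.

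The water extract at 100 µg/mL lowered 2 of the 5 tested members, where 6.98% of all genes passed as lower. ID2 had 93.7, 91.7 and 99.4 CPM (log2 change -0.33 ± 0.05, adjusted p = 0.000241) and ID3 176, 176 and 167 CPM (-0.28 ± 0.04, adjusted p = 0.000116). The selected genes were at 10.1, 11 and 11.2 CPM for ID4 and 11, 12.1 and 11.9 CPM for ATOH8, below all vehicle libraries, with log2 changes of -0.40 and -0.41 as a description.

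ATOH8 thus had similar means at 100 µg/mL, 11.5 ± 1.42 CPM with ethanol extract and 11.7 ± 0.578 CPM with water extract (SD, n = 3), and differed at 500 µg/mL. From 100 to 500 µg/mL its ethanol libraries did not overlap (9.89 to 12.4 CPM and 14.3 to 16.6 CPM). That step between doses was not tested.

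At 20 µg/mL little passed. ID1 rose with water extract, with 210, 213 and 190 CPM against 177, 184 and 169 CPM with vehicle (log2 change 0.21 ± 0.05, adjusted p = 0.012), where 4.26% of all genes passed as higher. It no longer passed without replicate 1 (adjusted p = 0.066) or replicate 2 (0.0722) of that group or without vehicle replicate 3 (0.0755). ID3 fell with ethanol extract, with 186, 189 and 193 CPM against 210, 210 and 211 CPM with vehicle (-0.15 ± 0.04, adjusted p = 0.0214), where 3.82% passed as lower. This call was lost in 4 of the 6 fits that each left out 1 library, at adjusted p from 0.056 to 0.0885, without ethanol replicate 1 or 2 or vehicle replicate 1 or 3, and with only the 2 groups fitted (0.214).

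The highest dose was also set against the lowest, without vehicle. Ethanol extract at 500 against 20 µg/mL lowered ID1 (log2 change -0.77, adjusted p = 6.44e-12), ID2 (-0.96, 7.16e-14), ID3 (-0.69, 3.77e-13) and ID4 (-1.46, 1.01e-13), where 33.5% of all genes passed as lower. It raised SMAD6 (0.34, adjusted p = 7.64e-08) and SMAD7 (0.22, 0.000838), where 34% passed as higher, and ATOH8 did not pass (0.13, 0.198). This comparison shares no library with the one that selected ID4. It comes from the same fit, and the members were chosen with earlier results of these data known. The lower ID4 level here is therefore not shown to be independent of that choice.

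Water extract at 500 against 20 µg/mL lowered ID1 (log2 change -0.67, adjusted p = 1.31e-08), ID2 (-1.02, 6.21e-12), ID3 (-0.80, 6.21e-12) and SMAD6 (-0.19, 0.0118), 4 of the 5 members tested, where only 1.06% of all genes passed as lower. SMAD6 no longer passed without water 20 µg/mL replicate 1 or 3 (adjusted p = 0.0571 and 0.0633) or water 500 µg/mL replicate 2 (0.0637). The selected genes differed by -1.50 for ID4 and -1.40 for ATOH8, as a description.

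Ordered by group mean, ID1 ran from ethanol 500 µg/mL (108.5 CPM) over water 500 µg/mL (129 CPM) to the other 5 groups between 176.5 and 204.5 CPM, whose neighbours overlapped. ID4 fell into 4 levels without overlap, namely both extracts at 500 µg/mL, both at 100 µg/mL, both at 20 µg/mL, and vehicle. ID4 was selected on its water extract levels, so this order is a description. How often other genes fell into such levels was not counted. SMAD6 had water 500 µg/mL at the bottom (80 CPM) and ethanol 500 µg/mL at the top (116 CPM), with the other 5 groups between 88 and 91.6 CPM and overlapping.

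**Figure D2:**
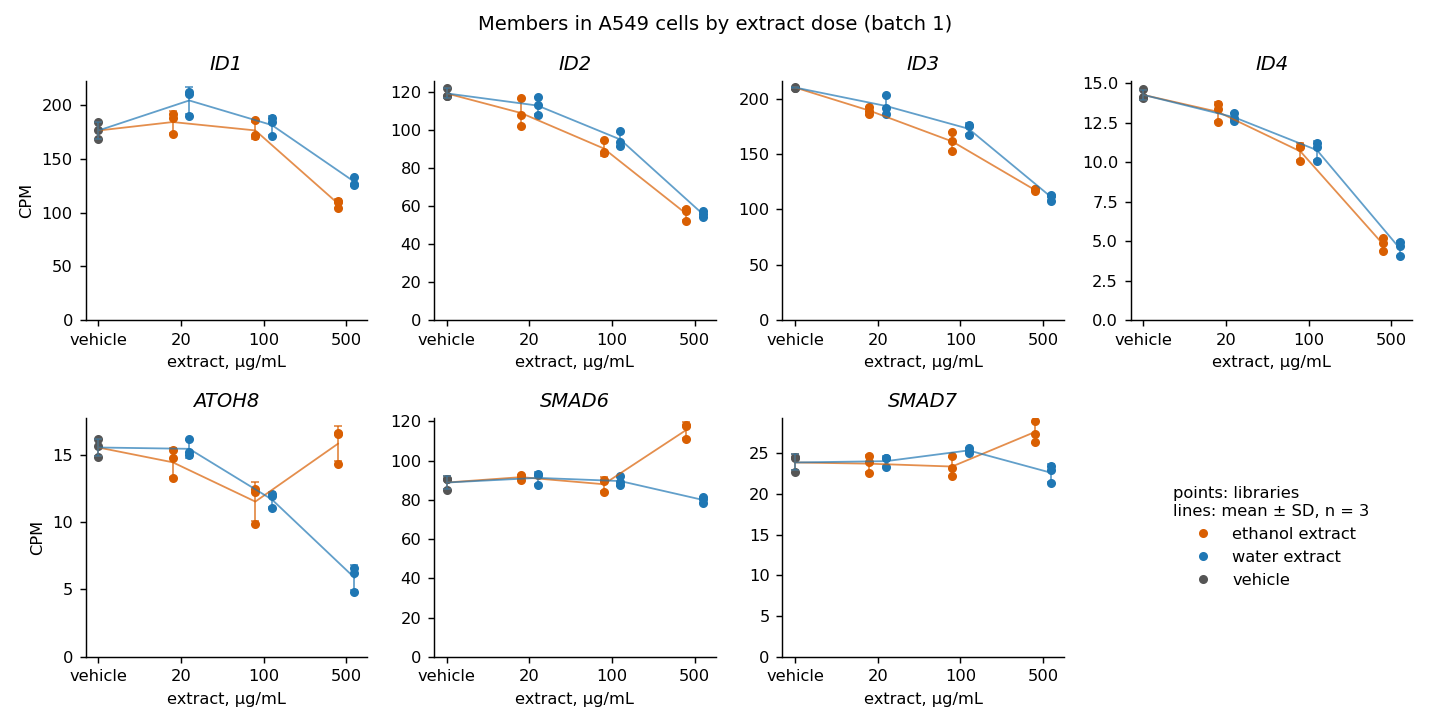
CPM of each member in the 21 libraries of batch 1, by extract dose with vehicle at the left. Points are libraries, and lines join group means with SD bars (n = 3). ID2, ID3 and ID4 step down with both extracts, and ATOH8 parts at 500 µg/mL (15.8 CPM with ethanol and 5.87 CPM with water extract). The water levels of ID4 and ATOH8, the selected genes, are a description. SMAD6 and SMAD7 are highest with ethanol extract at 500 µg/mL.

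Around the members, the rest of the BMP pathway was read from lists of ligands, receptors, SMADs, antagonists and other targets. At 500 µg/mL the ethanol extract raised 8 and lowered 1 of 10 BMP receptors and coreceptors tested, where 34.7% of all genes passed as higher and 34.4% as lower. The water extract raised 2 and lowered 0, where 9.7% passed as higher and 11.4% as lower. In either direction 69.1% of all genes passed with ethanol extract and 21.1% with water extract, and the lists are set against these shares. ACVR1, a type I BMP receptor, averaged 44.8 CPM with ethanol extract against 22.9 CPM with vehicle (log2 change 0.97 ± 0.04, adjusted p = 3.14e-15). With water extract ACVR2B, a type II receptor, averaged 22.7 CPM against 18.5 CPM with vehicle (0.30 ± 0.06, adjusted p = 0.000784). The list median was 0.525 with ethanol extract and 0.02 with water extract, beside 0.00 and 0.01 over all genes.

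Among 7 BMP ligands tested, ethanol extract raised 4 and lowered 0, and water extract raised 1 and lowered 1, which is 57.1% and 28.6% of the list against 69.1% and 21.1% of all genes. BMP6, a ligand known for its control of iron balance, averaged 25.5 CPM with ethanol extract (log2 change 0.75 ± 0.065, adjusted p = 5.11e-10) and 10.2 CPM with water extract (-0.575 ± 0.075, adjusted p = 1.34e-05), against 15.2 CPM with vehicle. BMP6 moved in opposite directions with the extracts. Of 6 receptor-regulated and common SMADs, ethanol extract raised 2 and lowered 1, and water extract raised 0 and lowered 1, or 50% and 16.7% of the list. The gene that fell with water extract was SMAD2 (96 CPM against 115.8 CPM with vehicle, adjusted p = 4.75e-05).

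Extracellular antagonists moved both ways. GREM1, a secreted protein that binds BMP ligands, averaged 22.8 CPM with ethanol extract (log2 change 1.96 ± 0.09, adjusted p = 3.59e-15) and 8.205 CPM with water extract (0.49 ± 0.10, adjusted p = 0.00124), against 5.86 CPM with vehicle. Of the 11 antagonists tested, 5 rose and 4 fell with ethanol extract, and 2 rose and 1 fell with water extract, or 81.8% and 27.3% of the list, near the 69.1% and 21.1% of all genes. CHRDL2, related to the antagonist chordin, fell with both, by -0.84 ± 0.08 (adjusted p = 1.91e-09) with ethanol and -0.41 ± 0.08 (adjusted p = 0.000614) with water extract.

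Among 8 further intracellular inhibitors, 4 rose and 2 fell with ethanol extract, and 0 rose and 1 fell with water extract, or 75% and 12.5% of the list against 69.1% and 21.1% of all genes. SMURF1, a ubiquitin ligase that targets BMP SMADs, averaged 86.7 CPM with ethanol extract against 58.5 CPM with vehicle (log2 change 0.57 ± 0.04, adjusted p = 3.16e-12). TOB1, a repressor of SMAD-driven transcription, fell with both extracts, by -0.42 ± 0.055 with ethanol (adjusted p = 4.22e-07) and -0.34 ± 0.055 with water extract (adjusted p = 0.00016). Of the 3 helix-loop-helix partners that ID proteins bind, TCF12 rose (0.395 ± 0.041, adjusted p = 1.07e-08) and TCF3 fell (-0.215 ± 0.052, adjusted p = 0.000815) with ethanol extract, and none passed with water extract.

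Other genes known to respond to BMP moved both ways. Of 10 tested, 5 rose and 3 fell with ethanol extract, and 1 rose and 2 fell with water extract, or 80% and 30% of the list, near the 69.1% and 21.1% of all genes. RUNX2, a bone transcription factor, averaged 3.46 CPM with ethanol (log2 change 2.68 ± 0.22, adjusted p = 2.06e-10) and 1.03 CPM with water extract (0.92 ± 0.265, adjusted p = 0.016), against 0.533 CPM with vehicle. HEY1, a repressor shared with the Notch pathway, averaged 5.53 CPM with ethanol (0.99 ± 0.13, adjusted p = 3.65e-07) and 1.6 CPM with water extract (-0.80 ± 0.16, adjusted p = 0.000867), against 2.78 CPM with vehicle.

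In the list of 6 HES and HEY repressors, ethanol extract raised 3 and lowered 1, and water extract raised 0 and lowered 3, or 66.7% and 50% of the list against 69.1% and 21.1% of all genes. HES1, a main Notch target, fell with water extract, at 20.6 CPM against 27.4 CPM with vehicle (log2 change -0.41 ± 0.06, adjusted p = 5.79e-05). Of 6 SMAD3 targets of the TGF-beta branch, ethanol extract raised 2 and lowered 3, and water extract raised 0 and lowered 3, or 83.3% and 50% of the list against the same shares. TGFBI, a matrix protein, averaged 818 CPM with ethanol (-1.20 ± 0.04, adjusted p = 2.02e-17) and 1538 CPM with water extract (-0.29 ± 0.04, adjusted p = 2.5e-05), against 1885 CPM with vehicle.

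**Figure D3:**
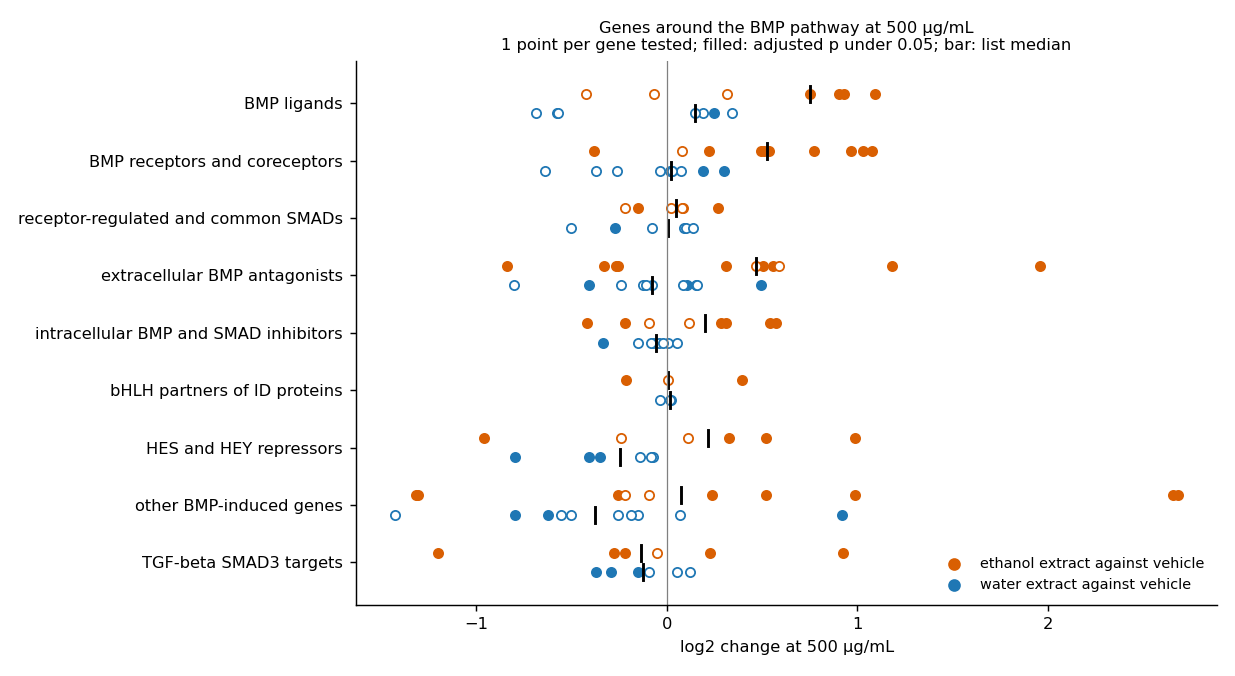
Log2 change at 500 µg/mL of the tested genes in 9 lists around the BMP pathway, with ethanol extract above water extract in each list. Each point is a gene, filled where it passed at an adjusted p under 0.05, and the black bar is the list median. Receptors lie mostly right of 0 with ethanol extract (median 0.525) and near 0 with water extract (median 0.02).

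The genes most like ID4 over the 21 batch 1 libraries, by Pearson correlation of log2 CPM, were 2 members, ID2 (r = 0.981) and ID3 (0.974). With the 7 members and clone identifiers left out, the closest of 12937 candidates were ZMYND8 (r = 0.954), ADGRG1 (0.945), NR4A3 (0.919), GRAMD1B (0.91) and NPTX1 (0.91). NR4A3, a nuclear receptor induced early after stimulation, averaged 4.65 CPM with ethanol and 3.83 CPM with water extract at 500 µg/mL, against 7.91 CPM with vehicle. Most like ID1 among the same candidates were NPTX1 (0.945), SEC13 (0.939), UPK3B (0.923), PLEKHB2 (0.921) and DBNL (0.913). Unlike ID4, ID1 was less close to the other ID genes than to these, at 0.904 for ID4, 0.893 for ID2 and 0.887 for ID3. NPTX1, a secreted pentraxin of neurons, averaged 384.5 CPM with ethanol and 477 CPM with water extract, against 634 CPM with vehicle. These correlations are a description, since the libraries share the same 7 groups.

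In batch 2 few members passed against vehicle. At 10 µM, 2 of 56 member tests passed over the 8 ingredients, where 2.6% of all gene tests passed in either direction. At 2 µM and at 0.4 µM 1 of 56 passed each, where 1.18% and 1.06% of all gene tests passed. All 4 calls were higher than vehicle, and their shares were near those of all genes.

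Gallic acid at 10 µM raised ATOH8 and ID4, where 8.51% of all genes passed as higher. ATOH8 had 28.2, 21.1 and 24.6 CPM, against 17.1, 17.1 and 15.7 CPM with vehicle (log2 change 0.57 ± 0.12, adjusted p = 0.00202). The groups did not overlap, although ATOH8 no longer passed without gallic acid replicate 1 (adjusted p = 0.0775) or with only the 2 groups fitted (0.221). ID4 had 29.6, 14.9 and 24.4 CPM, against 14.9, 15 and 17.2 CPM with vehicle (0.55 ± 0.19, adjusted p = 0.0421).

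The ID4 groups overlapped, and the call was lost in 5 of the 6 fits that each left out 1 library, at adjusted p from 0.0717 to 0.507; it held only without gallic acid replicate 2. Replicates 1 and 3 of gallic acid 10 µM had mitochondrial shares of 1.44% and 2.07%, and replicate 2, with the lowest levels of both genes, had 15.5%. Without all libraries under 5%, which leaves gallic acid replicate 2 alone, the log2 change was 0.36 for ATOH8 (adjusted p = 0.0968) and -0.07 for ID4 (adjusted p = 0.919). With the mitochondrial share as a covariate, ATOH8 kept its call and ID4 did not (0.24, adjusted p = 0.19). Both alternatives were chosen after seeing the data.

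Catechin gave the other calls. At 2 µM ID3 had 382, 229 and 283 CPM, against 191, 194 and 187 CPM with vehicle (log2 change 0.64 ± 0.21, adjusted p = 0.0494), where 4.5% of all genes passed as higher. At 0.4 µM ID4 had 22.9, 25.5 and 24 CPM, against 14.9, 15 and 17.2 CPM with vehicle (0.62 ± 0.19, adjusted p = 0.0412), where 3.15% passed as higher. Neither group overlapped vehicle. The ID3 call was lost with the mitochondrial share as a covariate (0.18, adjusted p = 0.571), without the filter (0.0735), with only the 2 groups fitted (0.0743), and without catechin replicate 1 (0.255) or any 1 vehicle library (0.119 to 0.127). The ID4 call was lost with the covariate (0.35, adjusted p = 0.0598), without the filter (0.0761) and without any 1 of the 6 libraries (0.0724 to 0.167). Refits of the catechin groups that left out 1 library or kept only the 2 groups were added after seeing the data, as were those of the next comparisons of gallic acid with its lowest dose and with benzoic acid. Catechin 10 µM passed for no member.

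By dose, 1 of 56 member tests passed for 10 against 0.4 µM, where 0.51% of all gene tests passed. It was ATOH8 with gallic acid, at 24.7 ± 3.53 CPM at 10 µM against 17.1 ± 0.607 CPM at 0.4 µM (SD, n = 3; log2 change 0.525 ± 0.120, adjusted p = 0.0195), where 0.322% of all genes passed as higher. Its mean at 2 µM, 19.2 ± 3.74 CPM, lay between them. It did not pass without the libraries under 5% mitochondrial counts (0.31, adjusted p = 0.086), without the filter (0.111) or with only the 2 groups fitted (0.661). It was also lost in 5 of the 6 fits that each left out 1 library, at adjusted p from 0.0525 to 0.378, and held only without gallic acid 10 µM replicate 2.

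**Figure D4:**
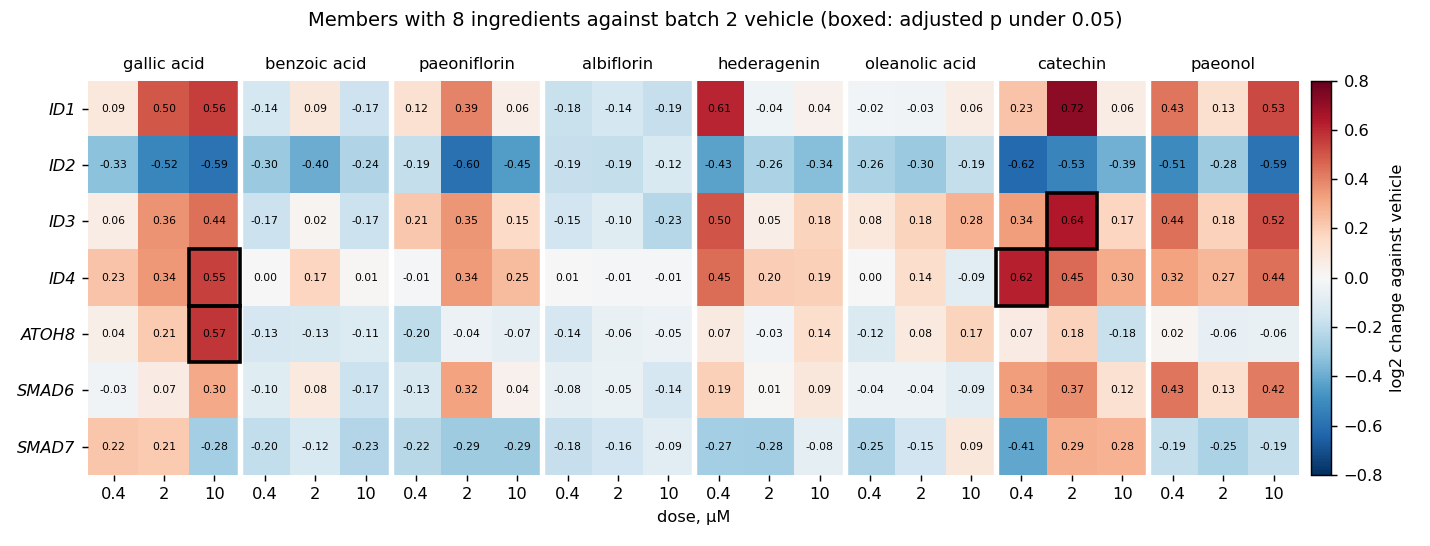
Log2 change of each member against batch 2 vehicle for the 8 ingredients at 0.4, 2 and 10 µM, with red above and blue below 0. Boxes mark the 4 changes that passed at an adjusted p under 0.05. The ID2 row is below 0 in all 24 groups, although no ID2 value passed.

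ID2 was below vehicle in the mean of all 24 ingredient groups. Vehicle had 127, 124 and 125 CPM, and group means with ingredients ran from 81.7 ± 3.84 CPM (catechin 0.4 µM) to 115 ± 6.48 CPM (albiflorin 10 µM). At 10 µM all 8 groups lay below vehicle without overlap, but no log2 change passed, with values from -0.59 to -0.12. The 24 comparisons share the same 3 vehicle libraries and are not independent. How often other genes lay wholly on 1 side of these vehicle libraries was not counted, so this is not shown to be particular to ID2.

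Without the 18 libraries under 5% mitochondrial counts, an alternative chosen after seeing the data, ID2 fell against vehicle in 8 of the 24 groups, where 2.9% of all gene tests passed as lower. They were paeoniflorin 10 µM, hederagenin at all 3 doses, oleanolic acid 2 µM, gallic acid 2 µM and 0.4 µM and catechin 0.4 µM, with log2 changes from -0.65 for catechin 0.4 µM to -0.25 for hederagenin 2 µM. Catechin 0.4 µM and hederagenin 0.4 µM, among these 8, rest on 1 remaining library each. In that fit 23 of the 24 ID2 changes were below 0, with a median of -0.25. In all, 4 groups had 1 library left, assumed to vary like the others. With the mitochondrial share as a covariate over all 75 libraries, ID2 passed in none of the 24.

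Levels within batch 2 moved with the mitochondrial share of the library. In libraries under 5%, from 5% to under 10% and from 10% up, the median ID2 level was 76.1, 100.0 and 109.6 CPM over 18, 18 and 39 libraries. ID1 ran the other way, with medians of 354, 250.4 and 223 CPM, as did ID3 with 257, 208 and 190.1 CPM, ID4 with 23, 18.2 and 15.3 CPM and SMAD6 with 109.5, 87.4 and 79.8 CPM.

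ATOH8 varied less, with medians of 18, 16.3 and 15.7 CPM, and SMAD7 had no such order, at 20.7, 18.5 and 19.6 CPM. In 14 ingredient groups some libraries were under 5% and others not. There the low-share libraries were all lower for ID2 in 13 groups, all higher for SMAD6 in 13, for ID1 in 11, for ID4 in 10, for ID3 and ATOH8 in 9 each and for SMAD7 in 7. They were all lower for ID3, ID4 and ATOH8 in 2 groups each and for SMAD7 in 1. How often other genes parted in this way was not counted, so these counts are not shown to be particular to the members. Hederagenin at 0.4 µM shows the size of the spread within a group. Its ID1 levels were 316, 628 and 175 CPM in libraries with 2.16%, 1.55% and 14.3% mitochondrial counts. These 3 libraries are replicates of one group.

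**Figure D5:**
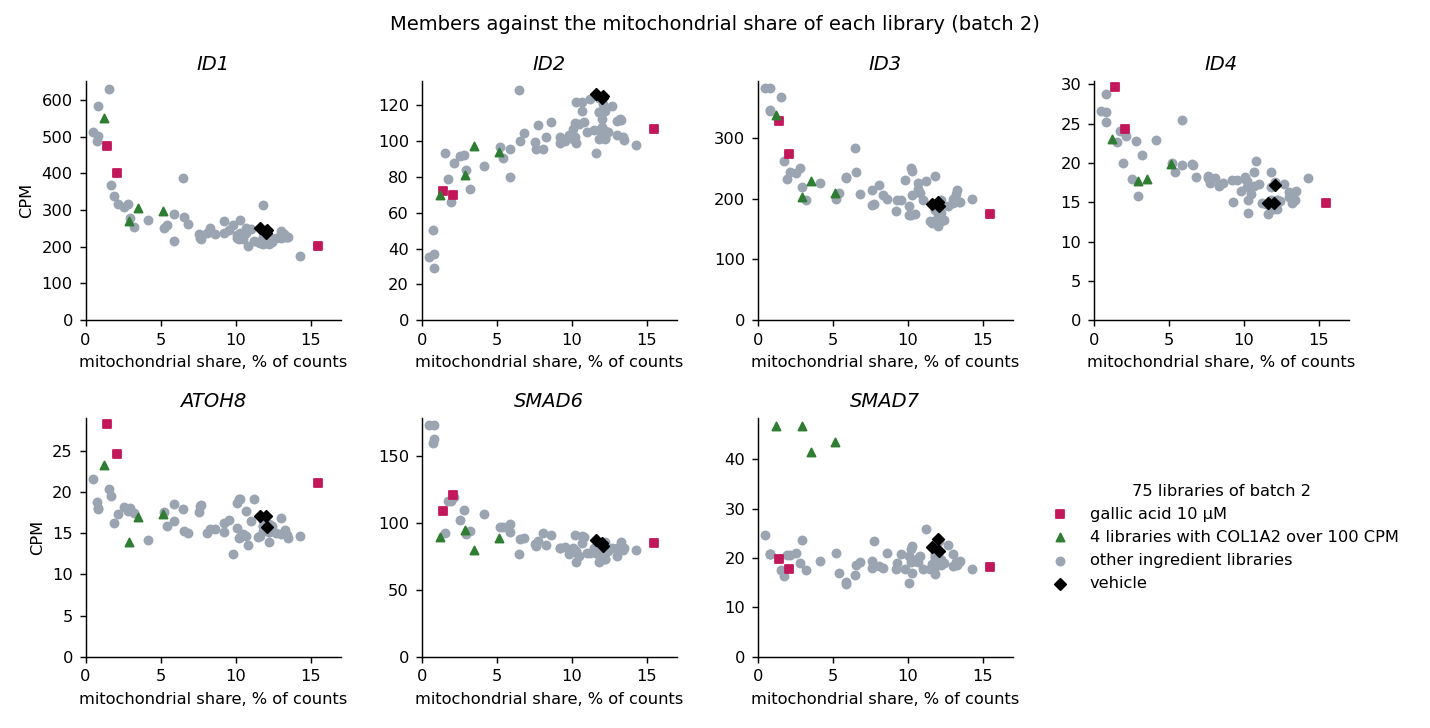
CPM of each member against the mitochondrial share of counts in the 75 libraries of batch 2, with gallic acid 10 µM, the 4 libraries with COL1A2 over 100 CPM, other ingredient libraries and vehicle marked. ID1, ID3, ID4 and SMAD6 are highest and ID2 lowest where the share is under 5%. SMAD7 of the 4 marked libraries, 41.4 to 46.8 CPM, lies above all others.

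SMAD7 separated the 4 libraries with COL1A2. It had 41.4 to 46.8 CPM there, against 14.7 to 25.8 CPM in the other 71 libraries. The ligand gene BMP4 had 18.7 to 22.6 CPM, against 2.23 to 6.46 CPM, while the other 6 members overlapped between the sets. How many of all genes separated these sets was not counted, so this is not shown to be particular to SMAD7 or BMP4. The 6 fibroblast markers summed to 959 to 1230 CPM, against 33.8 to 179 CPM. That sum includes COL1A2, on which the 4 libraries were picked, so the gap was in part fixed by that choice. COL1A1 had 418 to 544 CPM, against 23.7 to 151 CPM, and COL3A1 47.6 to 66.9 CPM, against 7.44 to 28.6 CPM. The matrix proteoglycan gene LUM had 7.83 to 12 CPM, against 0.109 to 0.824 CPM. In the 4 libraries DCN was at no more than 0.941 CPM and POSTN at no more than 0.13 CPM. The 7 epithelial markers summed to 12100 to 17600 CPM, against 10100 to 19300 CPM. The part of other cells in these libraries was not tested. Without these 4 libraries ID3 still passed with catechin at 2 µM, at a log2 change of 0.80. ID1 (0.88, adjusted p = 0.0495) and ID4 (0.57, adjusted p = 0.0436), which did not pass in the main fit, passed there too by edgeR.

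Related ingredients were compared at matched doses as 3 pairs at 3 doses, and 1 of 63 member tests passed, where 0.968% of all gene tests passed. The pass was ATOH8 with gallic acid, which is benzoic acid carrying added hydroxyl groups on its ring. ATOH8 had 28.2, 21.1 and 24.6 CPM with gallic acid at 10 µM, against 15.9, 15.2 and 15.2 CPM with benzoic acid at 10 µM (log2 difference 0.68 ± 0.12, adjusted p = 0.000557), where 5.75% of all genes passed as higher. The groups did not overlap, and the call was lost in 1 of 13 alternatives, with only the 2 groups fitted (0.69, adjusted p = 0.251). Without libraries under 5% mitochondrial counts the log2 difference was 0.46 and still passed, with gallic acid replicate 2 as the 1 library left in its group and assumed to vary like the others. At 2 and 0.4 µM no member passed for this pair, and at 10 µM ID3 (0.61, 95% interval 0.19 to 1.04, adjusted p = 0.0557) and ID4 (0.54, adjusted p = 0.0558) did not.

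Paeoniflorin and albiflorin, isomeric monoterpene glycosides, did not differ in any member by the main test at any dose. ID3 passed at 10 µM without the libraries under 5% mitochondrial counts (log2 difference 0.43, adjusted p = 0.0499 by edgeR). That fit was added after seeing the data. At 10 µM the 95% interval of the log2 difference was -0.27 to 0.215 for ATOH8, -0.39 to 0.88 for ID1 and -0.93 to 0.28 for ID2, and each interval includes changes of that size. Hederagenin and oleanolic acid, triterpenes that differ by a hydroxyl group, also had no member past the test. Their 10 µM intervals were -0.275 to 0.205 for ATOH8, -0.66 to 0.61 for ID1 and -0.76 to 0.455 for ID2.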

How the data were processed

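RNA-seq was carried out on 96 libraries of A549 cells in 32 groups of 3, in 2 batches with separate vehicles per the labels. The deposited table holds expected counts for 60675 genes made by the authors, of which 89.2% were whole numbers. The tools listed are RSEM 1.3.3, STAR, Trim Galore and FastQC, with GRCh38 (hg38) per the submitters' processing notes. Settings, annotation release and use of strand were not given in the sources used here, while the library kit keeps strand per the labels' protocols. RSEM shares a read among the genes it matches.

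Expected counts were rounded to whole numbers, CPM were taken on the effective library size, and counts were tested with edgeR 4.0.16 (R 4.3.3), using TMM factors (0.911 to 1.04 and 0.934 to 1.1), filterByExpr, the quasi-likelihood F-test and Benjamini-Hochberg adjustment over all genes tested at 0.05. The batches were fitted separately, each over all of its groups, with 16854 and 18324 genes and 14 and 50 residual degrees of freedom, for 11 and 41 comparisons. SE is the log2 change divided by the square root of F. The test was checked on simulated data. For ethanol extract 500 µg/mL against vehicle it recovered 56% of 1.25-fold, 80% of 1.5-fold and 98% of 2-fold changes. For gallic acid 10 µM against vehicle it recovered 0%, 14% and 54%.

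The 7 members and the gene lists were chosen with earlier results of these data known. List genes are named by size of change, at most 3 per list, among those past the test with at least 1 CPM in a group compared. The genes most like ID4 and ID1 are the 5 with the highest correlation of log2 CPM (pseudocount 0.5) over the 21 batch 1 libraries, among genes averaging at least 1 CPM, with the members and clone identifiers left out. Alternatives were DESeq2 1.42.0, no filter, the replicate number as a block, only the groups compared, and libraries left out. The fits without libraries under 5% mitochondrial counts and with that share as a covariate, and some refits in batch 2, were added after seeing the data.

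Same-numbered libraries were checked for shared deviations. Correlations of their deviations exceeded 0.1 for all 3 numbers in 2 of the 52 comparisons, paeonol 10 against 0.4 µM and paeoniflorin against albiflorin at 2 µM, and no member passed there with or without the block. Gene positions come from GENCODE v29 and upstream sequence from RefSeq (GRCh38.p14). All 7 genes matched a RefSeq entry by symbol, and the windows of all 7 were searched for the motifs.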

Additional observations from a re-analysis of the deposited data

Results flagged for a closer look

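Between the extracts at 500 µg/mL, 3 of the 5 members tested differed by the direct test with edgeR. In this comparison 66.1% of all genes passed in either direction, so a call was the usual outcome for a gene. ID1 was lower with ethanol than with water extract (log2 difference -0.25, adjusted p = 0.000264), in 3 of 3 libraries against all 3 of the other group. SMAD6 was higher with ethanol extract (0.53, adjusted p = 4.16e-11), and so was SMAD7 (0.29, adjusted p = 5.22e-05), in each case without overlap of the libraries.

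Gallic acid and benzoic acid at 10 µM differed in ATOH8 (log2 difference 0.68, adjusted p = 0.000557, edgeR), which was higher in all 3 gallic acid libraries. With only the 2 groups fitted it did not pass (adjusted p = 0.251).

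COL1A2, a gene outside the members, was at 485 CPM or more in 4 batch 2 libraries and at most 0.843 CPM in the other 71, vehicle included. SMAD7 was the member that did not overlap between the sets, and how many of all genes did the same was not counted.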

How the results depend on the processing

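Of the 37 member changes that passed, 37 kept direction and call under DESeq2, 37 with the replicate block, 33 without the filter and 31 with only the groups compared. They did so in 191 of 222 refits that left out 1 library, and the other 31 lost the call. The number of members past the test moved as follows, and the cause was not tested. Water extract 20 µg/mL went to 2 with DESeq2 and with the replicate block, instead of 1, and ran from 0 to 1 with 1 library left out. Ethanol extract 20 µg/mL gave 2 with the replicate block, 0 with only the groups compared, and 0 to 2 with 1 library left out. Water extract 500 against 20 µg/mL gave 3 to 4, and gallic acid 10 µM, at 2, gave 0 to 4. When 1 library was left out, the count stayed at its value in the other 8 batch 1 comparisons and for the other 7 ingredients at 10 µM.

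With only the groups compared, the count was 2 for albiflorin 10 µM, 1 for hederagenin and for oleanolic acid, 4 for benzoic acid and 0 for gallic acid. Without the filter it was 1 for gallic acid 10 µM and 0 for the 2 µM and 0.4 µM families and for 10 against 0.4 µM. Without the libraries under 5% mitochondrial counts it was 1 for paeoniflorin, hederagenin and oleanolic acid 10 µM, 0 for gallic acid 10 µM, 5 for 2 µM, 5 for 0.4 µM and 2 for the related pairs, and ID4 with gallic acid 10 µM turned to a log2 change of -0.066. With the mitochondrial share as a covariate it was 1 for gallic acid 10 µM and 0 at 2 and 0.4 µM. Without the 4 libraries with COL1A2 it was 3 at 2 µM, 2 at 0.4 µM and 3 for the pairs. The pairs gave 3 with DESeq2 and 2 with the replicate block. The share of all genes passing in each refit is not set beside these member counts. They show only how far the count moved and are no result about the members.

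Over all genes, 159 of 302 counts moved by over 1.5 times under an alternative. Without the filter, ethanol against water extract at 20 µg/mL gave 88 genes, against 0 with it and 735 at an unadjusted p under 0.05. With only the groups compared, ethanol extract 20 µg/mL gave 108 genes, against 1255, and gallic acid 10 µM 0, against 2469. Without the low-share libraries gallic acid 10 µM gave 264 genes, and catechin 2 µM 5605, against 1476.

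In the 2 comparisons where deviations of same-numbered libraries correlated, the block gave 0 members as before. The labels state no pairing, so whether same-numbered replicates share more than a number is not known. With 3 libraries per group and the wider spread of batch 2, a change that missed the test there is not shown to be absent.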
